A study of Mus musculus with 8 samples.

Results

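The alpha-defensin genes of the mouse small intestine were described in intestinal epithelial cells (IECs) of mice with and without CD1d. They were taken as every gene row of the deposited count table whose name began with Defa followed by a digit or a hyphen, which gave 33 of 25239 rows. NKT (natural killer T) cells recognise lipids held by CD1d and do not develop without it, and the study asked what their loss changed in the RNA of IECs. Bulk RNA-seq was available from 8 mice, 4 wild-type (WT) and 4 CD1d-KO, with 1 sample of sorted cells from the proximal small intestine of each. By the study's methods the WT strain was C57BL/6J and the CD1d-KO mice lacked both Cd1d1 and Cd1d2 in every cell, so that IECs themselves also lacked CD1d. The mice were 7 to 10 weeks old, untreated, and of both sexes, and live EpCAM+ cells without CD45, CD31 or Ter119 were sorted. By the study's methods these cells came from a preparation enriched for crypts, so that they do not stand for the epithelium as a whole. The paper states that its mice were not littermates and that this may affect their gut microbiota. The samples came from 2 experiments, and the labels used here do not say which sample belonged to which.

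Each library held between 23610266 and 31629435 counts. The targeted gene followed the labels, with normalised Cd1d1 counts of 0 to 7.15 in CD1d-KO and 61.1 to 91.1 in WT samples. The Y-linked genes Eif2s3y, Kdm5d and Uty were at 879 or more in CD1d-KO samples 1 and 2 and at 0 in the other 6 samples, so that WT had no sample of that sex. The sorted epithelium markers Epcam, Cdh1, Krt8, Krt18, Krt19 and Vil1 were abundant in every sample, and DESeq2 and edgeR called 0 of these 6 between genotypes, with 0 at an unadjusted p under 0.05.

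Alpha-defensins are small cationic peptides, rich in cysteine, that disrupt the membranes of bacteria. In the mouse small intestine they are made by Paneth cells at the base of the crypts, stored in secretory granules as precursors that the protease Mmp7 cleaves, and released into the crypt lumen together with lysozyme. Their genes form a cluster of close copies, and the cryptdin-related sequences (CRS) are a branch of the same family.

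All 33 members lay on chromosome 8 (mm10 coordinates of the count table), 28 on the plus and 5 on the minus strand. The members with counts lay between chr8:21025545-21735471. Defa-ps12 and Defa-ps13, which begin at 19210462 and 19300677, lay apart from the cluster among beta-defensin (Defb) genes and had 0 counts. In total 10 members were at 0 in every sample. Of these, 5 (Defa23, Defa4, Defa36, Defa43 and Defa6) had every exon base in common with another row, and a read that fell on 2 rows was counted for neither. Defa31 and Defa37 shared 99.8% and 98.5% of their exon bases, and Defa33 and both pseudogenes shared none. A 0 in the first 7 of these rows is thus no measure of their RNA. A further 5 members (Defa25, Defa20, Defa27, Defa42 and Defa35) had counts with a mean under 10, and 18 members had a mean raw count of 10 or more.

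**Figure D1:**
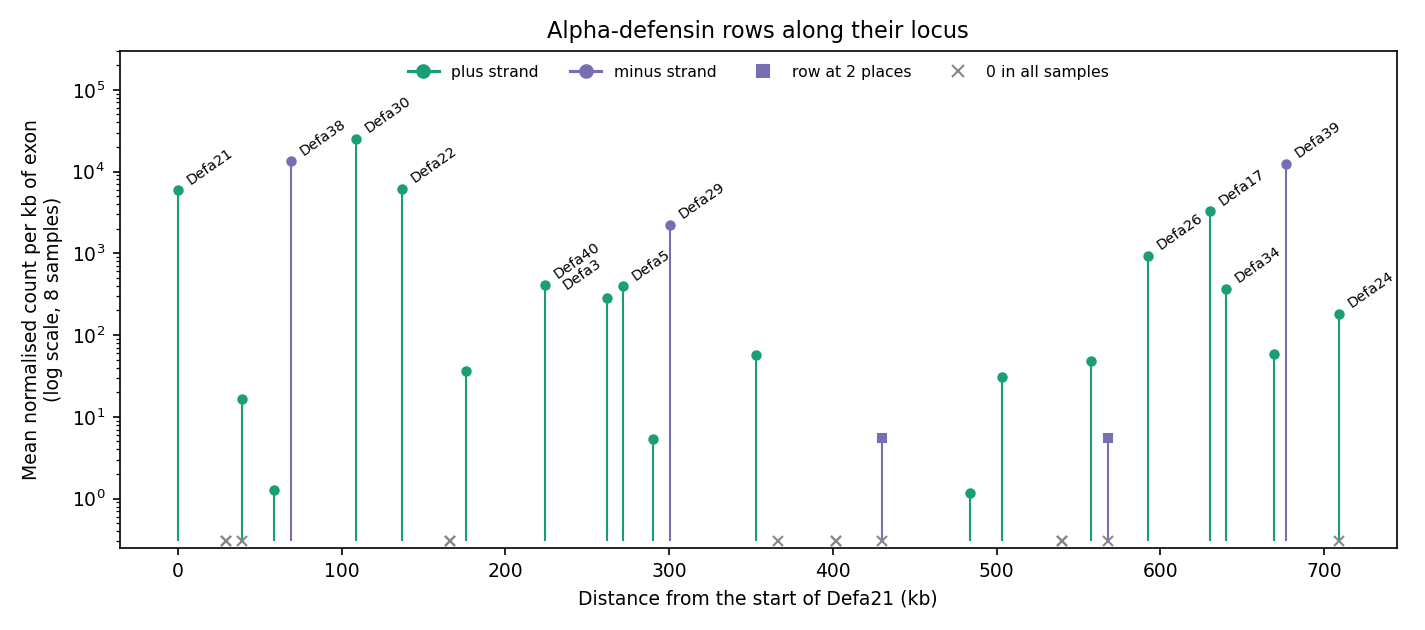
Mean normalised count per kb of exon over 8 samples (log scale) of each alpha-defensin row against its distance in kb from the start of Defa21, for the cluster without Defa-ps12 and Defa-ps13. Each line is 1 row at its annotated place, squares mark the row with counts that is annotated at 2 places, crosses mark rows at 0, and names are given above 100 per kb. The abundant members were spread along the locus, with Defa21, Defa38, Defa30 and Defa22 at one end, Defa29 between, and Defa26, Defa17 and Defa39 at the other end.

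The members were near copies of each other, which bears on how far single rows can be told apart. GENCODE held a transcript of the same symbol for 29 members of the cluster and for Defa-ps12 and Defa-ps13. Among the 29, the 406 pairs had transcript identities between 62.7% and 100%, with a median of 83.0%, and 93 pairs reached 90%. Neither Defa-ps12 nor Defa-ps13 aligned to any of the 29 over 150 bases or more. Joining members at 90% or more gave 4 groups, which are called by their most abundant gene. The Defa39 group (Defa39, Defa38, Defa29, Defa42 and Defa43) was made up of the 5 minus-strand members, and Defa39, Defa38 and Defa29 carry CRS names among their RefSeq synonyms. The Defa30 group held 12 members, and the Defa22 and Defa5 groups held 6 each. Coding sequences of the Defa39 group were 351 to 375 bases long, against 279 to 288 bases in the 22 plus-strand members with a complete coding sequence other than Defa27.

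Coding sequences are shown for the most abundant pair of near-identical genes and for the most abundant gene beside a called relative, from the GENCODE vM39 transcripts on GRCm39, 5′ to 3′ in the sense of the gene, with capitals at the bases that differ within a pair. Defa21 (chr8:21025545-21026517 in mm10) and Defa22 (chr8:21162277-21163249), both on the plus strand with 2 exons, differed at 2 of 282 bases.
Defa21: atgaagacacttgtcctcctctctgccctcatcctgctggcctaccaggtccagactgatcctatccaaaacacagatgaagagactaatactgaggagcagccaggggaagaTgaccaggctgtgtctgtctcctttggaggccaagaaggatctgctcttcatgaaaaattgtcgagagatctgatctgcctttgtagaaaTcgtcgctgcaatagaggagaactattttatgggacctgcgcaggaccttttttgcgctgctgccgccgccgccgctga
Defa22: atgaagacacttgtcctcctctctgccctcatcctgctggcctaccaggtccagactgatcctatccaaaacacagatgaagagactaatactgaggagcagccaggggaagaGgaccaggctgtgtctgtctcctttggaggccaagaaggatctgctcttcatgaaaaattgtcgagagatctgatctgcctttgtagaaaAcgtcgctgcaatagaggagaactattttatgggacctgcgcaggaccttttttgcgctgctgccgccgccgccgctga
Defa30 (chr8:21134650-21135598) and Defa17 (chr8:21655767-21656736), also on the plus strand with 2 exons, differed at 8 of 282 bases.
Defa30: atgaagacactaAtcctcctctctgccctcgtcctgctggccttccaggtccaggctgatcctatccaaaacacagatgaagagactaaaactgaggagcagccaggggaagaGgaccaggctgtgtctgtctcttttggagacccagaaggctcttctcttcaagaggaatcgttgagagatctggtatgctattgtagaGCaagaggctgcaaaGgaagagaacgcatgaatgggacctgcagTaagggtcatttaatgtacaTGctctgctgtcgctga
Defa17: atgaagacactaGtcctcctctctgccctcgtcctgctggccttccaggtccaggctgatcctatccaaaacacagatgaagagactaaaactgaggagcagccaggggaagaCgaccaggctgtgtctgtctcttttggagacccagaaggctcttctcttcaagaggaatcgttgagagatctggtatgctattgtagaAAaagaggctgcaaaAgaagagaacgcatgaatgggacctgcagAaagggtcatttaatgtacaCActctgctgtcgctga

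The coding sequences of 6 pairs were identical, among them Defa17 and Defa3. Defa17 and Defa3 were nevertheless listed at 906 to 2243 and 58.2 to 195 normalised counts, with no overlap of the 2 genes over the 8 samples. Their transcripts were 99.8% identical, and the counting kept each read at 1 place, so how far reads were exchanged between such rows was not tested. The summed counts below do not depend on that split within a sum.

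Levels per kb of exon placed Defa30 first in WT IECs, at 19367 ± 1399 normalised counts per kb (SD, n = 4). Defa38 (9191 ± 851) and Defa39 (8538 ± 1081) came next, and their WT samples overlapped. Defa22 (4572 ± 1235) and Defa21 (4379 ± 1012) also overlapped each other and lay above Defa17 (2364 ± 207), Defa29 (1431 ± 298) and Defa26 (680.1 ± 46.1). The 8 most abundant members thus stood apart in their WT samples except within the pairs Defa38 and Defa39, and Defa22 and Defa21. The remaining 10 named members were under 370 per kb in WT, and only Defa24 (137 ± 33.2) and the next gene down, Defa-ps1 (40.6 ± 16.7), did not overlap as neighbours in the order. In CD1d-KO IECs the first 8 genes kept the same order, with 31125 ± 11664 per kb for Defa30 and 17549 ± 6113 for Defa38, and neighbours overlapped in 14 of 17 places. By counts, Defa30, Defa39 and Defa38 held 71.6% of the summed alpha-defensin count on average, and the 5 most abundant members held 88.4%.

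The summed alpha-defensin count was higher in CD1d-KO than in WT IECs. It was 39396, 23870, 39721 and 54064 normalised counts in CD1d-KO samples 1 to 4 and 24377, 23828, 21941 and 18996 in WT samples 1 to 4. CD1d-KO samples 1, 3 and 4 lay above every WT sample, while CD1d-KO 2 lay among them, below WT 1. The log2 fold change was 0.82 ± 0.24 (SE, n = 4 per genotype), a 1.76-fold difference, with a DESeq2 adjusted p = 0.0236. As a share of all counts the members took 0.0834% to 0.186% in CD1d-KO and 0.0658% to 0.0866% in WT libraries. In bulk RNA, fewer or more Paneth cells and less or more RNA per cell cannot be told apart. Paneth cells lie in the crypts, and the paper reports a changed ratio of villus to crypt in CD1d-KO mice. The part of each sample's crypt yield in the alpha-defensin sum was not tested.

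The call of the sum was not held by every test. The exact two-sided permutation test over samples gave p = 0.0571 for a difference of 0.77 in mean log2 sum, where 0.0286 is the smallest p that 4 against 4 samples allow, and edgeR's quasi-likelihood test gave an adjusted p = 0.0594 (log2 fold change 0.81). With single samples left out the DESeq2 adjusted p was 0.0961 without CD1d-KO 1, 0.0739 without CD1d-KO 3, and 0.066, 0.0863, 0.110 and 0.107 without WT 1 to 4. Without CD1d-KO 2 it was 8.26e-13, with a log2 fold change of 0.99. With both Y-positive samples left out (6 samples, CD1d-KO 3 and 4 and all WT) the log2 fold change was 1.07 (DESeq2 adjusted p = 1.63e-14). Both of these fits leave out CD1d-KO 2, the lowest CD1d-KO sample, and the second rests on 2 CD1d-KO mice. Their small p-values thus do not strengthen the call. Without Defa30 the sum of the other 32 members did not overlap between genotypes, with a log2 fold change of 0.88 ± 0.23 (SE) and a DESeq2 adjusted p = 0.00611. CD1d-KO 2 was at 17090 there, against 16567 in WT 1. Of all genes tested, 4.09% did not overlap with CD1d-KO higher. Defa30 was the most abundant member and had a smaller log2 fold change (0.68) than the sum. Its removal thus raises the fold change, and this fit does not strengthen the call either.

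**Figure D2:**
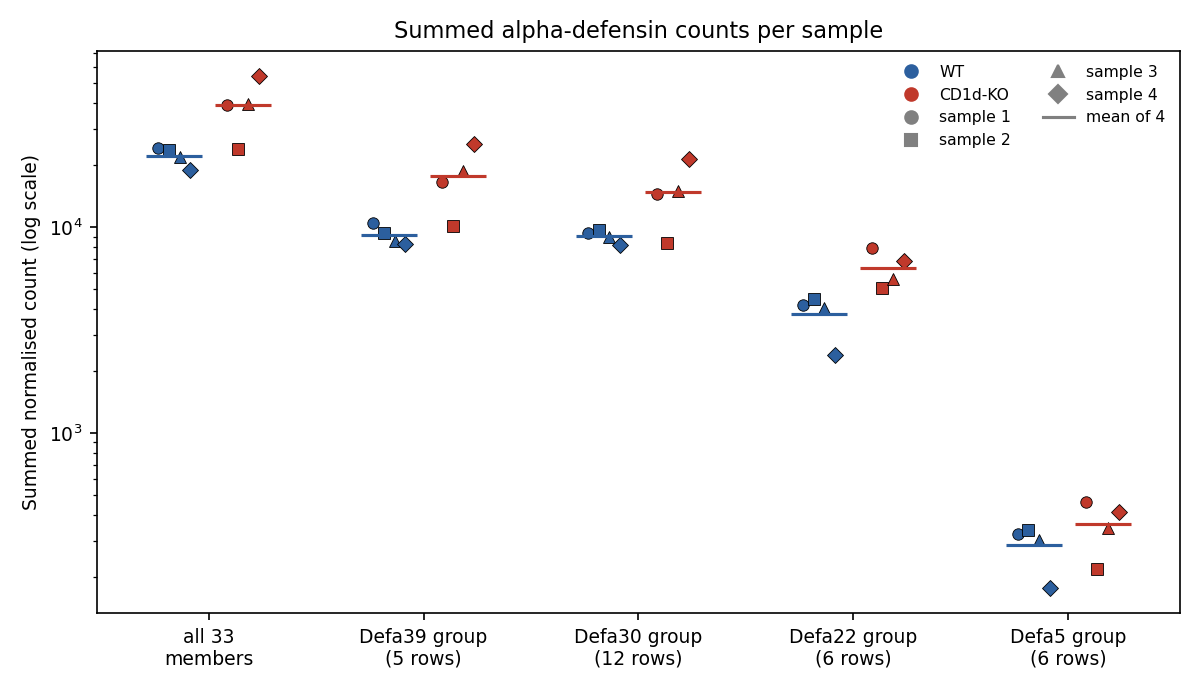
Summed normalised counts (log scale) of all 33 alpha-defensin rows and of the 4 groups of similar members, with 1 point per sample, symbols for the sample number and a line for the mean of 4 samples. CD1d-KO 2 is the lowest CD1d-KO sample in all 5 columns, and the Defa22 group is the only column in which the genotypes do not overlap.

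Gene by gene, 20 members had enough counts for an adjusted p, and their log2 fold changes lay between 0.02 (Defa34) and 1.27 (Defa32), all above 0, where 50.3% of the 15446 genes tested lay above 0. Their median was 0.88, against 0.00 over all genes tested. DESeq2 called 7 of the 20 higher in CD1d-KO and 0 lower at an adjusted p under 0.05, beside 1.65% of all genes called higher and 2.38% called lower. No member was lower at an unadjusted p under 0.05 either, since none had a negative fold change, and edgeR called 2 higher, Defa29 and Defa38, and 0 lower, beside 0.589% of all genes called higher. For 8 of the 20 the genotypes did not overlap, all with CD1d-KO higher, beside 4.09% of all genes. The members share reads and a cell type, so that these counts are not independent of each other. Of the 18 named members, 14 had their lowest CD1d-KO value in CD1d-KO 2, and in 14 the samples CD1d-KO 1, 3 and 4 lay above every WT sample.

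**Figure D3:**
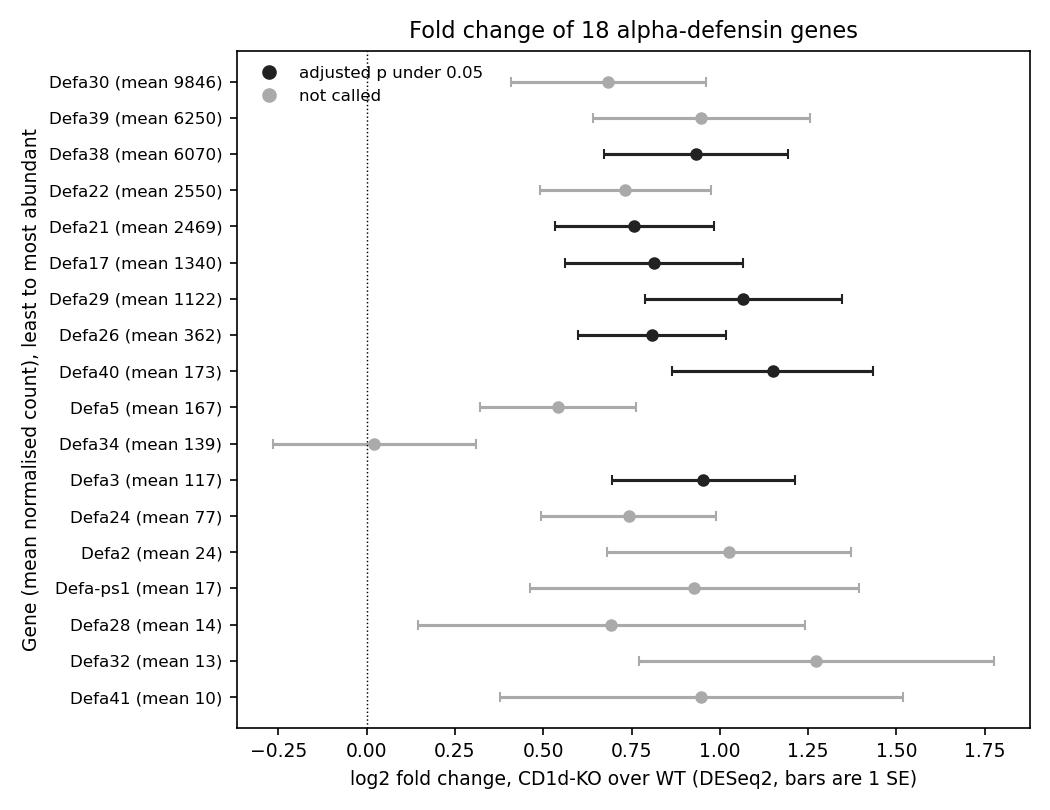
DESeq2 log2 fold change of CD1d-KO over WT with its SE for the 18 members with a mean raw count of 10 or more, ordered by mean normalised count, in black where the adjusted p was under 0.05 and in grey otherwise. All points lie at or to the right of 0, from 0.02 for Defa34 to 1.27 for Defa32, and the most abundant member, Defa30 (0.68), is not called.

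The Defa39 group, the minus-strand CRS branch, rose in CD1d-KO IECs. It and the Defa30 group held similar shares of the sum in WT, 41.2% and 40.8%. Its sum was 16530, 10185, 18829 and 25357 normalised counts in CD1d-KO samples 1 to 4 and 10495, 9351, 8577 and 8258 in WT samples 1 to 4. CD1d-KO 2 fell just under WT 1 and the other CD1d-KO samples stood above all WT samples. The log2 fold change was 0.95 ± 0.27 (SE), with a DESeq2 adjusted p = 0.0151. That call was lost without CD1d-KO 3 (0.0703), WT 2 (0.0821), WT 3 (0.0922) or WT 4 (0.0803).

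Within this group Defa38 (chr8:21094971-21096050, minus strand) was at 8164, 4986, 7090 and 11630 normalised counts in CD1d-KO samples 1 to 4, against 4724, 4066, 4079 and 3822 in WT samples 1 to 4. All CD1d-KO samples lay above all WT samples, and the log2 fold change was 0.93 ± 0.26 (SE; DESeq2 adjusted p = 0.0142), with the call lost without CD1d-KO 1 (0.0751), WT 2 (0.0902), WT 3 (0.0774) or WT 4 (0.0753). Defa29 (chr8:21325888-21327020) was at 1481, 909, 1877 and 1813 in CD1d-KO samples 1 to 4, against 833, 815, 748 and 505 in WT samples 1 to 4, again without overlap. Its log2 fold change was 1.07 ± 0.28 (SE; DESeq2 adjusted p = 0.00713), and it stayed called with each single sample left out. Defa39 (chr8:21702524-21703647) was at 6878, 4284, 9857 and 11908 in CD1d-KO samples 1 to 4, against 4937, 4465, 3746 and 3927 in WT samples 1 to 4. CD1d-KO 2 lay between the WT samples here, and the log2 fold change of 0.95 ± 0.31 (SE) was not called (DESeq2 adjusted p = 0.0502). Without CD1d-KO 2 it was called (DESeq2 adjusted p = 4.58e-11), but that fit leaves out the lowest CD1d-KO sample and does not make up for the missing call. Defa42 was near the limit of detection, at 5.86 to 7.15 in CD1d-KO and 0.982 to 4.89 in WT, and was not called (0.94 ± 0.72, SE; DESeq2 adjusted p = 0.604).

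The Defa30 group was the other large group and was not called as a sum. It was at 14501, 8416, 14961 and 21478 normalised counts in CD1d-KO samples 1 to 4 and 9378, 9675, 9003 and 8169 in WT samples 1 to 4. CD1d-KO 2 lay below 3 of the 4 WT samples, the others above all of them. The log2 fold change was 0.71 ± 0.26 (SE; DESeq2 adjusted p = 0.111), and 0.91 without CD1d-KO 2 (DESeq2 adjusted p = 9.11e-10). The second fit leaves out the lowest CD1d-KO sample and does not make up for the missing call.

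Defa30 itself was at 11968, 6779, 11901 and 17907 normalised counts in CD1d-KO samples 1 to 4 and 7810, 7997, 7642 and 6764 in WT samples 1 to 4. It ranked 435 by mean normalised count among the 19088 genes with counts. CD1d-KO 2 again fell within the WT range, and the log2 fold change of 0.68 ± 0.28 (SE) was not called (DESeq2 adjusted p = 0.161). It was 1.82e-08 by DESeq2 without CD1d-KO 2, a fit that again leaves out the lowest CD1d-KO sample.

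Of the other members of the Defa30 group, DESeq2 called 4 higher. None of the 4 was called by edgeR (edgeR adjusted p = 0.0644 to 0.0925). Defa40 (chr8:21249715-21250553) was at 229, 144, 242 and 342 normalised counts in CD1d-KO samples 1 to 4, against 156, 128, 81.4 and 64.8 in WT samples 1 to 4. CD1d-KO 2 lay under WT 1 alone, and the log2 fold change was 1.15 ± 0.28 (SE; DESeq2 adjusted p = 0.00335). Defa26 (chr8:21618168-21618972) was at 502, 256, 458 and 627 in CD1d-KO samples 1 to 4, against 287, 262, 261 and 243 in WT samples 1 to 4. CD1d-KO 2 fell inside the narrow WT range, and the log2 fold change was 0.81 ± 0.21 (SE; DESeq2 adjusted p = 0.00592). Both stayed called with each single sample left out.

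Defa17 was at 1534, 1026, 2031 and 2243 normalised counts in CD1d-KO samples 1 to 4, against 970, 1092, 906 and 918 in WT samples 1 to 4. CD1d-KO 2 lay below WT 2, and the log2 fold change was 0.81 ± 0.25 (SE; DESeq2 adjusted p = 0.0363), with the call lost when CD1d-KO 1 (0.0774) or 3 (0.114) or any WT sample (0.0849 to 0.143) was left out. Defa3 (chr8:21287409-21288377), whose coding sequence equals that of Defa17, was at 154, 90.5, 195 and 178 in CD1d-KO samples 1 to 4, against 65.8, 93.3, 58.2 and 103 in WT samples 1 to 4. CD1d-KO 2 lay below WT 2 and WT 4, and the log2 fold change was 0.95 ± 0.26 (SE; DESeq2 adjusted p = 0.0105), with the call lost when CD1d-KO 3 (0.0647) or 4 (0.0558) or WT 1 (0.0599) or 3 (0.0637) was left out. Defa24, of which 67.3% of exon bases were shared with the uncounted row Defa6, was at 74.3 to 130 in CD1d-KO and 40.7 to 69.2 in WT. Its samples did not overlap, yet the log2 fold change of 0.74 ± 0.25 (SE) was not called (DESeq2 adjusted p = 0.0604; 0.0349 without CD1d-KO 3, its lowest CD1d-KO sample). The low members Defa-ps1 (0.93 ± 0.47, SE) and Defa28 (0.69 ± 0.55, SE) overlapped between genotypes and were not called, with DESeq2 adjusted p-values of 0.314 and 0.621.

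The Defa22 group was called higher in CD1d-KO by DESeq2, without overlap of its sums, and was not called by edgeR (edgeR adjusted p = 0.0745). It was at 7901, 5052, 5585 and 6816 normalised counts in CD1d-KO samples 1 to 4, against 4181, 4462, 4061 and 2391 in WT samples 1 to 4. The spread within WT came mostly from WT 4, which lay well under the other 3. The log2 fold change was 0.75 ± 0.23 (SE; DESeq2 adjusted p = 0.0358), and the call was lost when CD1d-KO 1 (0.149) or 4 (0.129) or WT 1 (0.0913), 2 (0.0551) or 3 (0.106) was left out and with the Y-positive samples left out (0.72, DESeq2 adjusted p = 0.282).

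Defa21 was at 3803, 2402, 2713 and 3494 normalised counts in CD1d-KO samples 1 to 4, against 2076, 2062, 1999 and 1201 in WT samples 1 to 4. Every CD1d-KO sample lay above every WT sample, and the log2 fold change was 0.76 ± 0.23 (SE; DESeq2 adjusted p = 0.0262). It was not called by edgeR (edgeR adjusted p = 0.0663). The DESeq2 call was lost when CD1d-KO 1 (0.171), 3 (0.0532) or 4 (0.120) or WT 1 (0.0599), 2 (0.0705) or 3 (0.0757) was left out. It was also lost with the Y-positive samples left out (0.76, DESeq2 adjusted p = 0.192). Defa22 was at 4047, 2601, 2803 and 3283 in CD1d-KO samples 1 to 4, against 2072, 2377, 2041 and 1174 in WT samples 1 to 4. It did not overlap either, and its log2 fold change of 0.73 ± 0.24 (SE) was not called (DESeq2 adjusted p = 0.0591), but was without WT 4 (0.56, DESeq2 adjusted p = 0.00409). The coding sequences above show that 2 bases separate the genes, and no test of a difference between them was made. Defa2 (24.9 to 38.1 in CD1d-KO and 12.2 to 20.6 in WT) and Defa32 (14.4 to 28.3 and 4.89 to 12.8) did not overlap and were not called, with log2 fold changes of 1.03 ± 0.35 and 1.27 ± 0.50 (SE) and DESeq2 adjusted p-values of 0.0645 and 0.148. Defa20 was at 0 in 6 of 8 samples.

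The Defa5 group was the smallest and was not called. Its sum was 464, 217, 345 and 414 normalised counts in CD1d-KO samples 1 to 4, against 323, 340, 301 and 177 in WT samples 1 to 4, with CD1d-KO 2 and WT 4 low and the genotypes overlapping. The log2 fold change was 0.34 ± 0.23 (SE; DESeq2 adjusted p = 0.541). Defa5 was at 131 to 248 in CD1d-KO and 91.7 to 165 in WT (0.54 ± 0.22, SE; DESeq2 adjusted p = 0.167, and 0.0328 without CD1d-KO 2, its lowest CD1d-KO sample). Defa34 was at 181, 72.4, 130 and 177 in CD1d-KO samples 1 to 4, against 149, 170, 154 and 78.2 in WT samples 1 to 4, with no consistent order of the genotypes. Its log2 fold change was 0.02 ± 0.29 (SE; DESeq2 adjusted p = 0.988), the lowest of the 20. Defa41 (0.95 ± 0.57, SE) and Defa35 (0.83 ± 0.75, SE) had means of 10.3 and 6.75 normalised counts and were not called, with DESeq2 adjusted p-values of 0.451 and 0.692.

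The promoters of the members share much of their sequence. RefSeq (GRCm38.p6, the same build as mm10) gave a promoter, 250 bases before to 50 bases after the start, for 16 of the 33 members, and each end matched a transcript of the same symbol. The letters TATAAA, the core of the TATA box, were found on either strand in 15 of 16, against 13.6% of 32851 promoters of the same length. The letters CTTTGA, found in sites of TCF/LEF factors of the Wnt pathway, were found on either strand in 13 of 16, against 5257 of the 32851. The 3 promoters without CTTTGA were those of Defa38, Defa42 and Defa43, all of the minus-strand group. A match of letters is no measured binding site, and the members with a promoter are copies of each other. The promoters of Defa21, Defa30 and Defa38, 1 for each of the larger groups, are shown 5′ to 3′ in the sense of the gene, with matches of both motifs in capitals (CTTTGA reads TCAAAG where the match is on the other strand).
Defa21 promoter (chr8:21025295-21025594, plus strand): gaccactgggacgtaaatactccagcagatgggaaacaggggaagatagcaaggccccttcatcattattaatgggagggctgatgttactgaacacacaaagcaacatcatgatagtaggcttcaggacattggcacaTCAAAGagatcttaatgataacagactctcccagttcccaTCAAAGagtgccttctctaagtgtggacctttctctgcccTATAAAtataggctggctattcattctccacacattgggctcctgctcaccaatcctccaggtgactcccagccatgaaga
Defa30 promoter (chr8:21134400-21134699, plus strand): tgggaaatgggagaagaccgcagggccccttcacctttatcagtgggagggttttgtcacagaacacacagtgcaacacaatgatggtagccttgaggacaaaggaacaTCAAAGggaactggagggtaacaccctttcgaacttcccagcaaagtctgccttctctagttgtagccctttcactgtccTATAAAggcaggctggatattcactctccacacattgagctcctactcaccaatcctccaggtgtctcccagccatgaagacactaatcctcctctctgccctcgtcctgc
Defa38 promoter (chr8:21096001-21096300, minus strand): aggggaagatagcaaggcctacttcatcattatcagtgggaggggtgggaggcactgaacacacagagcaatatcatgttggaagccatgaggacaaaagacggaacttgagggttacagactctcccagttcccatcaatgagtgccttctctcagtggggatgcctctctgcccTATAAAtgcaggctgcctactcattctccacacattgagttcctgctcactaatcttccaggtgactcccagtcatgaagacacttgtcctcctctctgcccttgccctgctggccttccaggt
The TATAAA match began 31 bases before the start in Defa21, 61 in Defa30 and 74 in Defa38. The Defa22 promoter was identical to that of Defa21 over all 300 bases, and the 2 genes had similar mean normalised counts, 2550 and 2469. Their transcripts were 99.5% identical, and how far reads were exchanged between the 2 rows was not tested. The similar counts are thus no measure of the promoters. Listed counts of genes with identical promoters were not always similar. Defa2 and Defa20 shared all 300 bases and differed at 1 of 288 coding bases, yet Defa2 had 24.1 and Defa20 0.498 mean normalised counts. The coding sequence of Defa20 was also identical to that of Defa32, which had 13.2. How reads were placed among such near-identical rows was not tested, so these counts cannot be set against the promoters.

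The make-up of the alpha-defensin pool overlapped between the genotypes, as a description with no test. For none of the 18 members did the shares of the sum separate the genotypes (0 of 18). Defa30 took 34.0% ± 1.6 of the sum in WT and 30.5% ± 2.0 in CD1d-KO (SD, n = 4), with CD1d-KO 4 (33.1%) above WT 1 (32.0%). The Defa39 group took 41.2% ± 2.4 of it in WT and 44.7% ± 2.8 in CD1d-KO, with a difference of 3.52 percentage points. The Defa22 group took 16.7% ± 2.9 and 17.0% ± 4.3, and was at 20.1% and 21.2% in CD1d-KO 1 and 2 but at 14.1% and 12.6% in CD1d-KO 3 and 4. CD1d-KO 1 and 2 are the samples with Y-linked counts, and the WT samples, all without them, were at 17.2%, 18.7%, 18.5% and 12.6%. Defa34 took 0.610% ± 0.139 in WT and 0.354% ± 0.072 in CD1d-KO, overlapping through CD1d-KO 1 (0.461%) and WT 4 (0.412%).

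**Figure D4:**
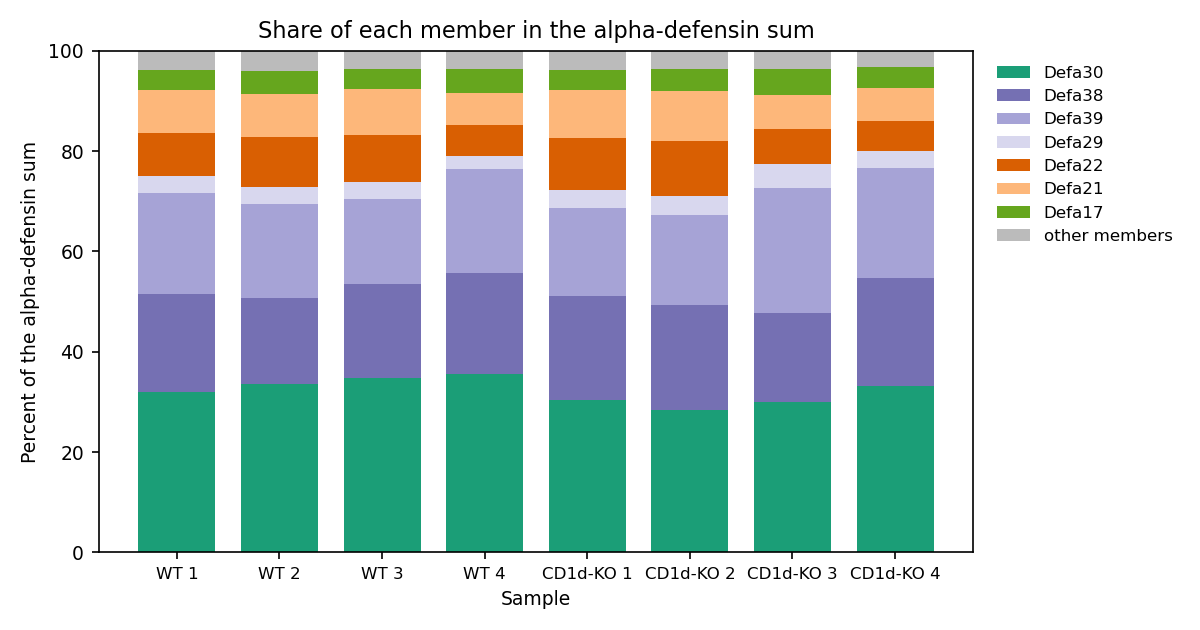
Percent of the summed alpha-defensin count held by the 7 most abundant members and by all others in each of the 8 samples. Defa30 takes 28.4% to 35.6% of each sample, and Defa21 and Defa22 together are lower in WT 4, CD1d-KO 3 and CD1d-KO 4 than in the other samples.

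Other genes of the Paneth granule did not move as one. Of 16 Paneth granule and marker genes besides the alpha-defensins, DESeq2 called 4 higher and 2 lower, 10 were not called, and the median log2 fold change was 0.13. The genes called higher were Lyz1, the Paneth lysozyme (0.73 ± 0.23, SE; DESeq2 adjusted p = 0.0416), the lectin Reg3a (0.83 ± 0.16, 3.02e-05), and Clps and Pnliprp2, which encode colipase and a lipase (0.83 ± 0.17, 0.000105, and 1.20 ± 0.17, 1.07e-09). The call of Lyz1 was lost with any of 7 single samples left out, CD1d-KO 2 excepted (0.0819 to 0.162). Those called lower were the antibacterial lectins Reg3b (-1.45 ± 0.34, 0.00177) and Reg3g (-1.25 ± 0.25, 7.25e-05), which enterocytes also make, and neither was called with the Y-positive samples left out, at log2 fold changes of -1.17 and -1.10 (DESeq2 adjusted p = 0.129 and 0.0547). Not called were Mmp7 (-0.27), the ribonuclease Ang4 (0.17), the pentraxins Mptx1 (-0.21) and Mptx2 (0.02), the lectin Itln1 (0.51), the protease Habp2 (0.19), the phospholipase Pla2g2a (0.11), Nupr1 (0.00), Kit (0.15) and Cd24a (0.06).

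The alpha-defensin sum was then set against 5 of these genes within each sample, again as a description with no test. Of the genes called above only Lyz1 was among the 5, and Mmp7, Ang4, Mptx2 and Habp2 were not called. Ratios to Reg3a, Clps, Pnliprp2, Reg3b and Reg3g were not taken. The log2 fold changes of Reg3a (0.83), Clps (0.83) and Pnliprp2 (1.20) were no smaller than that of the sum (0.82). Those of Reg3b (-1.45) and Reg3g (-1.25) were below 0. What follows thus holds for the 5 chosen genes only, and not for Paneth genes as a whole. The log2 of the sum over the mean log2 level of Lyz1, Mmp7, Ang4, Mptx2 and Habp2 was 4.41, 4.35, 4.30 and 4.41 in CD1d-KO samples 1 to 4, against 3.71, 3.71, 3.69 and 3.79 in WT samples 1 to 4. The genotypes did not overlap, and the difference of 0.64 was larger than the spread within either (SD 0.053 and 0.041). CD1d-KO 2, which was low in the sum, was like the other CD1d-KO samples here, and it was also the lowest CD1d-KO sample for all 5 genes. Against Mmp7, the ratio of the sum was 37.4, 33.7, 34.6 and 38.2 in CD1d-KO samples 1 to 4, against 15.5, 18.4, 16.04 and 19.2 in WT samples 1 to 4. The ratios to Ang4 (15.3 to 19.7 against 9.03 to 13.1), Mptx2 (26.6 to 46.1 against 18.3 to 24.4) and Habp2 (127 to 148 against 70.9 to 103) did not overlap either. The ratio to Lyz1 did, at 1.11 to 1.34 in CD1d-KO and 1.09 to 1.25 in WT.

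**Figure D5:**
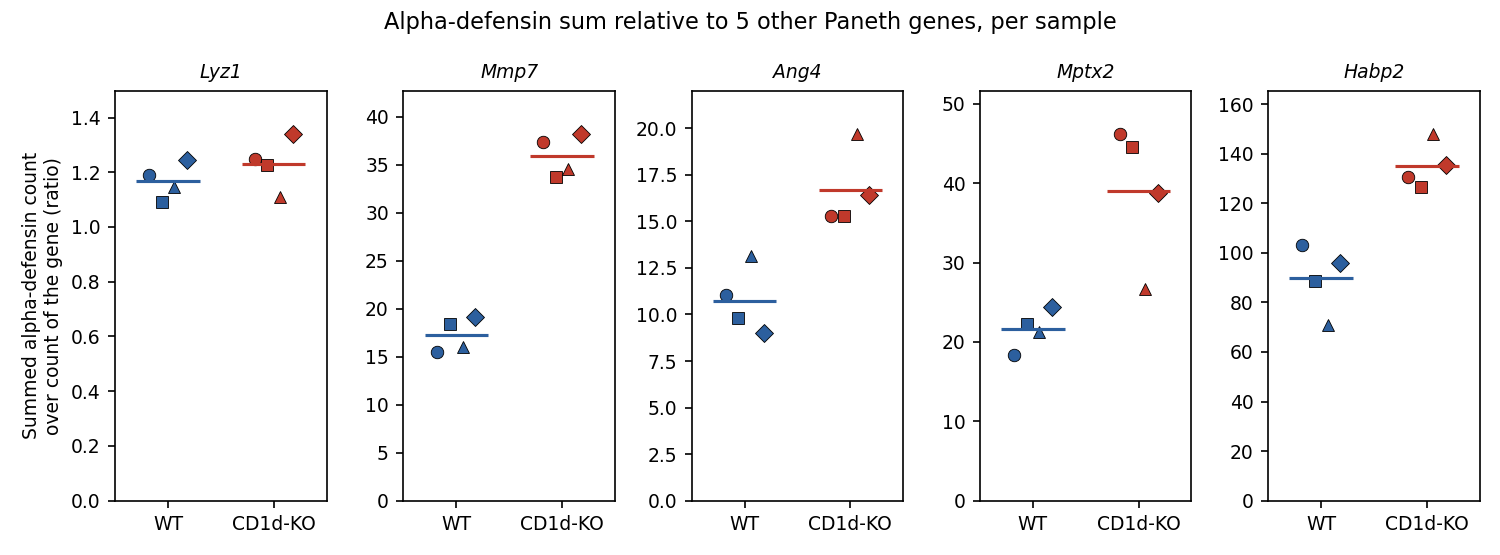
Ratio of the summed alpha-defensin count to the normalised count of 5 other Paneth genes in each sample, with a line for the mean of 4 samples, symbols for the sample number (circle 1, square 2, triangle 3, diamond 4) and a separate axis from 0 for each gene. The genotypes overlap for Lyz1 (means 1.17 in WT and 1.23 in CD1d-KO) and stand apart for Mmp7 (17.3 and 35.9), Ang4, Mptx2 and Habp2.

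Genes that direct Paneth cells were not called. Of 12 regulators of Paneth fate and maturation, among them Atoh1 (-0.03), Gfi1 (-0.08), Spdef (-0.18) and Sox9 (0.10), DESeq2 called 0 and 1 had an unadjusted p under 0.05, and edgeR also called 0. Over all genes tested 4.03% were called in either direction, a share near which 0 of 12 lies. Of 13 genes tested for processing, storage and release of granules, 1 was lower. This was Nod2, a sensor of bacterial peptidoglycan, at 36.2 to 65.3 in CD1d-KO and 81.7 to 152 in WT (-1.26 ± 0.25, SE; DESeq2 adjusted p = 5.56e-05). Its partner kinase Ripk2 (-0.45 ± 0.17, SE) was not called, with a DESeq2 adjusted p = 0.122.

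Markers of other tissue moved with the genotype beside the alpha-defensins. The summed gastric epithelium list, of which Gkn2, Gkn1 and Tff2 had the highest WT means, was at 257 to 1022 normalised counts in CD1d-KO and 2053 to 16529 in WT. DESeq2 called 6 of its 10 tested genes lower, all 10 had an unadjusted p under 0.05, and edgeR called 9 of 11. Its part in the alpha-defensin result was not tested. With a stomach score as covariate 0 members were called, beside 0.306% of all genes called higher, and the alpha-defensin sum was at 1.20 (DESeq2 adjusted p = 0.476). The gastric sums did not overlap between genotypes, so that fit cannot tell the score and the genotype apart. Lists of T and NK cells (14.3 to 85.4 in CD1d-KO and 40.3 to 554 in WT, 2 of 9 lower) and of B and plasma cells (67.4 to 89.5 and 131 to 656, 2 of 8 lower) also had genes called lower in CD1d-KO, the first with overlapping sums, and edgeR called 0 genes of either. The pancreas also makes Clps and Pnliprp2, and the exocrine pancreas list had 5 of 11 genes at 0 in every sample, Prss2 and Pnlip among them. In the goblet, enteroendocrine, stem cell, enterocyte and distal small intestine lists DESeq2 and edgeR called 0 genes each, with 0 of 10, 0 of 10, 2 of 9, 3 of 12 and 3 of 9 tested genes at an unadjusted p under 0.05. DESeq2 called 1 of 10 tuft cell genes (Matk, -0.51) and 1 of 3 myeloid genes (Itgam, -0.40) lower, and 1 of 9 proximal small intestine genes (Cyp2b10, 1.40) higher. In these 3 lists 5 of 10, 1 of 3 and 1 of 9 tested genes had an unadjusted p under 0.05. Of the 16 other rows between the outermost alpha-defensins, the 8 named Defb or AY76 were at 0, and the 2 with a mean raw count of 10 or more, 6820431F20Rik (0.20) and 2610005L07Rik (-0.33), were not called.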

How the data were processed

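Bulk RNA-seq of sorted IECs from 8 mice, 4 WT and 4 CD1d-KO, was analysed. The authors aligned reads with HISAT2 to GRCm39 by their methods and deposited counts per gene, made per the file header by featureCounts 1.6.4 on paired reads with an mm10 RefSeq gene annotation, primary alignments only and no strand. How these builds fit together is not given in the sources used here. Reads on 2 rows were counted for neither, and a read that aligned to several copies was counted at its primary place. Libraries held 23610266 to 31629435 counts; counting error is 31.6% for a count of 10 and 3.16% for 1000, and the replicates are separate mice. No 2 libraries matched within sampling noise.

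From these counts, DESeq2 1.42.0 (R 4.3.3) was fitted over all genes with genotype as the only term. The Benjamini-Hochberg adjustment, independent filtering and a call at an adjusted p under 0.05 were used. The study's methods name DESeq2 for comparing genotypes and do not give the terms of its model. Normalised counts are counts over DESeq2 size factors. Sums of members were fitted as 1 row in place of the members. Groups were to be set by protein identity; with no protein table used here, they were joined by single linkage at 90% identity of GENCODE vM39 transcripts (Biopython 1.88). The ratio to other Paneth genes used a pseudocount of 1. Alternatives were edgeR 4.0.16, TMM factors, other filters and size factors, a replicate block, a stomach score covariate, samples without Y-linked counts and single samples left out. Members with a mean raw count of 10 or more, and the Paneth list in full, were named. The members and lists were chosen with earlier results of these data known. Scripts were tested on simulated data, in which false calls stayed under the share the threshold allows with edgeR and exceeded it with DESeq2.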

Additional observations from a re-analysis of the deposited data

Results flagged for a closer look

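Among 124 sets of 4 samples examined for 1 sample far from the other 3, 4 held such a sample, where chance flags about 1 in 20. Defa21 was at 1201 normalised counts in WT 4, against 1999 to 2076 in the other WT samples. Reg3b was at 21982 in WT 4, against 53363 to 55577 in the other WT samples. Defa29 took 2.66% of the alpha-defensin sum in WT 4, against 3.41% to 3.42% in the other WT samples. Defa34 took 0.461% of the sum in CD1d-KO 1, against 0.303% to 0.327% in the other CD1d-KO samples. WT 4 had the fewest counts of all libraries, and the part of its depth in these values was not tested.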

How the results depend on the processing

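The 7 alpha-defensin calls became 2 with edgeR, 3 with the replicate block and 0 when a stomach score was a covariate, and between 3 and 10 with single samples left out. The gastric sums did not overlap between genotypes, so the fits with the stomach score cannot tell the score and the genotype apart. The log2 fold change of the sum stayed above 0 under all 20 alternatives and was called in 10, with adjusted p-values from 1.63e-14 to 0.476. It was 0.81 with edgeR, 0.77 with the replicate block (adjusted p = 0.418), 1.20 with the stomach score, 0.77 in the exact permutation test, and 0.62 to 0.99 with single samples left out. The 2 group calls became 1 with edgeR, 0 with the replicate block, 0 with the stomach score, 4 of 7 when groups were joined at 95% identity, and 0 to 3 with single samples left out. Same-numbered samples did not all deviate together (correlations of 0.00395 to 0.285 over 11721 genes), so the numbers are not taken as pairs. Paneth genes besides alpha-defensins called fell from 6 to 2 with the stomach score and ranged from 5 to 7 with single samples left out, and the granule release genes called went from 1 to 0 with the stomach score. Without Lyz1 in the Paneth reference the difference in the ratio was 0.78. Log2 fold changes turned direction only for members and Paneth genes that were not called. These were Defa34 (-0.00428 with the replicate block), Mmp7 (0.0344 with the stomach score), Mptx1 (0.48 with the stomach score and 0.0664 among samples without Y-linked counts), Mptx2 (-0.0646 with the replicate block) and Nupr1 (-0.00185 with edgeR, -0.000403 with TMM factors and -0.00421 with the replicate block). With single samples left out, Defa34 ranged from -0.17 to 0.24, Ang4 from -0.0359 to 0.32, Mptx2 from -0.18 to 0.24, Habp2 from -0.00246 to 0.35, Pla2g2a from -0.0583 to 0.27 and Nupr1 from -0.14 to 0.11. Over all genes, 622 calls became 228 with edgeR, 99 with the stomach score, 372 among samples without Y-linked counts, 323 without CD1d-KO 2, and 406, 385 and 420 without WT 1, 2 and 3. The cause of these changes was not tested. Members with few counts, and copies that reads cannot tell apart, limit what single rows can show.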
